A study of Rattus norvegicus with 62 samples.

Results

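The L4 dorsal root ganglia (DRG) of the uninjured side were compared between female rats 5 weeks and female rats 1 week after a chronic constriction injury (CCI) of the other side. The libraries were taken by the sex, time and side in their labels: 6 ganglia at 5 weeks and 7 at 1 week, together 13 of the 62 libraries of the series. The L4 DRG holds the cell bodies of sensory neurons that serve the hindlimb, and CCI is a model of neuropathic pain in which loose ligatures are tied around the sciatic nerve. The series covers the injured (ipsilateral) and the opposite (contralateral) ganglion of female and male rats at 1 and 5 weeks and of male rats at 24 h, and its submitters use the contralateral ganglion as the control. The first group here is female, contralateral to CCI, 5 weeks after surgery (6 animals). The second is female, contralateral to CCI, 1 week after surgery (7 animals). Beside them stand the ipsilateral ganglia of the females with the same animal codes (6 at 5 weeks, 7 at 1 week) and contralateral ganglia of male rats (5 at 5 weeks, 7 at 1 week). All of these animals carried the injury on 1 side, so the contralateral ganglion is not that of an unoperated rat. Strain, age and the way animals were assigned to times are not given in the sources used here, and time after surgery, age and cohort cannot be told apart. RNA was poly-A selected from whole ganglia, in which fewer cells of a type and less RNA per cell cannot be told apart.

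Sensory neurons lie in the ganglion wrapped by satellite glia, and their axons run through it ensheathed by Schwann cells. Fibroblasts of the capsule and endoneurium secrete fibrillar collagens, elastic fibre proteins and proteoglycans, while Schwann cells, endothelial cells and pericytes lay down basement membranes of type IV collagen, laminins, nidogens and perlecan. Compact myelin is built with peripheral myelin protein 22 (Pmp22) and myelin basic protein (Mbp), and its lipids include galactocerebroside made by Ugt8. The transcription factors Sox10, Egr2 and Pou3f1 drive myelin genes in Schwann cells.

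Library totals were 18.4 to 25.5 M counts in the 13 ganglia (16.9 to 33.5 M in all 62). Genes that sensory neurons switch on after axon injury were lower in both groups than in the injured ganglia. Atf3, a stress-induced transcription factor, ran from 5.60 to 9.17 CPM (counts per M counts, on scaled library sizes) at 5 weeks and 5.69 to 10.3 CPM at 1 week, against 145 to 245 CPM and 229 to 351 CPM in the injured ganglia of the same weeks. Gal, Npy, Gap43 and Sprr1a were also below the injured ganglia, by differing amounts, and Sprr1a stayed at or under 0.0487 CPM. None of the 5 passed edgeR's test between the weeks, adjusted or at an unadjusted p under 0.05. The nerve injury list as a whole summed to 2755 to 2941 CPM at 5 weeks and 2712 to 2860 CPM at 1 week, against 5050 to 6722 CPM and 5828 to 7545 CPM in the injured ganglia. No female library had a count of Kdm5d or Eif2s3y, which lie on the Y chromosome. Neuron markers summed to 44700 to 47970 CPM at 5 weeks and 43210 to 46360 CPM at 1 week, and satellite glia markers to 6086 to 6651 CPM and 5986 to 7182 CPM. Replicates 2 and 3 of the 5-week group lay apart on the first principal component of the 13 libraries, which held 24.6% of the variance, and results are given without them where they change.

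Of 18125 genes tested, 567 rose (3.13%) and 1369 fell (7.55%) at 5 weeks relative to 1 week, at an adjusted p of 0.05 in edgeR's quasi-likelihood test with Benjamini-Hochberg adjustment. The changed genes thus made up 10.7% of those tested, and the median log2 difference of all genes was 0.00. Most changes were small: 5 genes rose and 130 fell by more than a factor of 2. At 5 weeks 517 genes (2.85%) lay below every 1-week library in all 6 libraries, and 251 (1.38%) lay above. Without replicates 2 and 3 of the 5-week group 285 genes rose and 789 fell.

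Extracellular matrix genes were lower in the 5-week ganglia, and each of the 8 classes examined had a median below 0. Of 154 listed matrix genes 149 were tested, and 66 fell (44.3% of them, against 7.55% of all genes) while none rose. Their median log2 difference was -0.39, against 0.00 for all genes tested, and 130 of the 149 lay below 0. At an unadjusted p under 0.05, 2 matrix genes were higher and 87 lower in edgeR, and DESeq2 called 1 higher and 70 lower and limma-voom 2 higher and 62 lower. The 2 matrix genes higher at that level were P4ha1, a collagen prolyl hydroxylase subunit, at a log2 difference of 0.15, and Col13a1, a transmembrane collagen, at 0.44. Without replicates 2 and 3 of the 5-week group, 35 matrix genes fell. Summed over the list, matrix transcripts came to 11180, 11860 and 14280 CPM (lowest, median and highest) at 5 weeks and 13160, 18020 and 19240 CPM at 1 week. The groups overlapped in that sum, with replicate 6 the lowest of the 1-week ganglia.

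**Figure D1:**
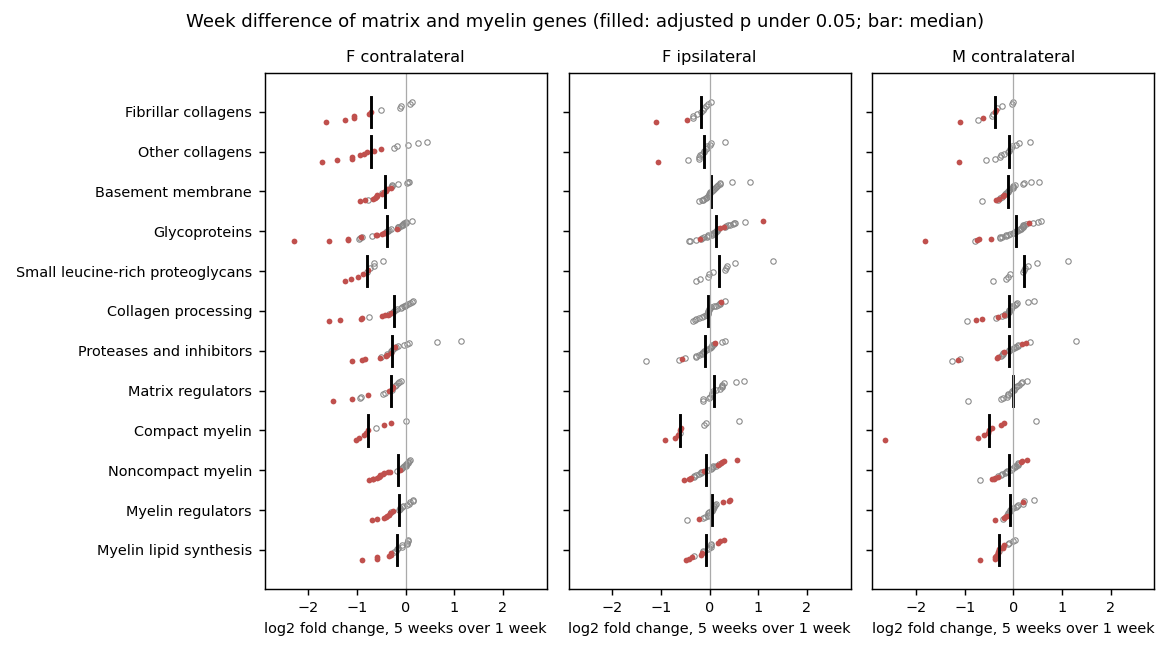
Log2 fold change of 5 weeks over 1 week for each tested member of the matrix and myelin lists (filled points passed an adjusted p of 0.05, open points did not) in female contralateral, female ipsilateral and male contralateral ganglia, with a bar at each list's median. In the female contralateral panel the medians reach -0.71 for fibrillar collagens and -0.76 for compact myelin; in the ipsilateral panel they are -0.17 and -0.60.

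The fibrillar collagens, which form the tensile fibrils of connective tissue, showed 6 of 11 members lower, with a list median of -0.71. Col3a1, the type III collagen of loose reticular tissue, had 180.4, 249.0 and 397 CPM at 5 weeks (lowest, median, highest) against 429.6, 896 and 1054 CPM at 1 week. No 5-week ganglion reached the lowest 1-week ganglion, and the log2 difference was -1.64 (SE 0.24, edgeR adjusted p = 1.52e-05). Col1a1, which encodes the main chain of type I collagen, had 289, 364 and 499 CPM at 5 weeks against 471, 1060 and 1102 CPM at 1 week. The groups overlapped only through replicate 6 of the 1-week group, which lay far below its 6 fellows; the log2 difference was -1.25 (SE 0.22, edgeR adjusted p = 0.00017). Its partner chain Col1a2 had 283, 355 and 490.5 CPM at 5 weeks against 453, 842 and 914 CPM at 1 week, a log2 difference of -1.06 (SE 0.19, edgeR adjusted p = 0.00027). Col5a1, which nucleates type I fibrils, had 97.8, 113 and 144 CPM at 5 weeks against 131, 203 and 225.5 CPM at 1 week, a log2 difference of -0.71 (SE 0.11, edgeR adjusted p = 5.79e-05). Col2a1, a cartilage collagen, had 24.0, 40.9 and 52.3 CPM at 5 weeks against 51.2, 84.8 and 124 CPM at 1 week and fell by 1.07 on the log2 scale (SE 0.21, edgeR adjusted p = 0.00054). Cartilage and bone markers as a list had 3 of 15 members lower (20%, against 7.55% of all genes tested) and a median of -0.04.

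**Figure D2:**
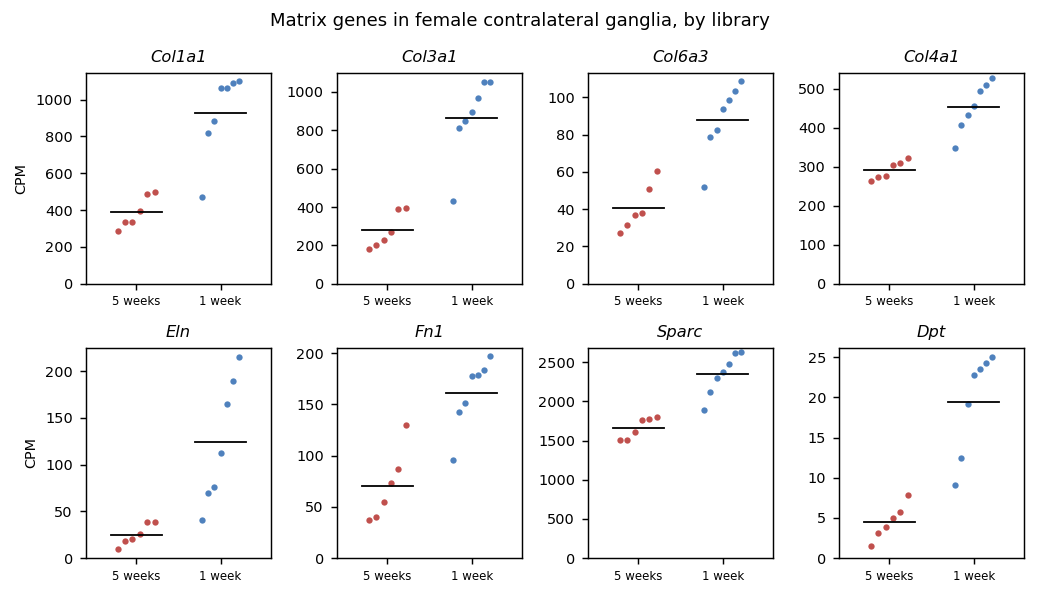
CPM (linear axes from 0) of 7 matrix genes and the fibroblast marker Dpt, 1 point per ganglion, with 5-week ganglia to the left of 1-week ganglia and a line at each group mean. Col3a1, Col4a1, Eln, Sparc and Dpt do not overlap between the groups, while Col1a1 overlaps through a single 1-week ganglion at 471 CPM.

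Fibril-associated, beaded and network-forming collagens followed, with 9 of 14 members lower and a median of -0.71 on the log2 scale. Col14a1, which binds the surface of collagen fibrils, had 83.4, 90.4 and 110.4 CPM at 5 weeks against 134, 166 and 183 CPM at 1 week. Every 5-week ganglion lay below every 1-week ganglion, and the spread was narrow for a matrix gene (log2 difference -0.79, SE 0.08, edgeR adjusted p = 2.82e-08). Col6a3, a chain of the beaded filaments around cells, had 27.5, 37.4 and 60.5 CPM at 5 weeks against 51.7, 93.6 and 109 CPM at 1 week, with overlap at the edges and a log2 difference of -1.11 (SE 0.18, edgeR adjusted p = 5.22e-05).

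Basement membrane genes had 13 of 22 members lower and a median of -0.42. Type IV collagen, the network of every basement membrane, is assembled mainly from the products of Col4a1 and Col4a2. Col4a1 had 264, 291 and 323 CPM at 5 weeks against 347, 456 and 527 CPM at 1 week, and Col4a2 had 194, 217 and 248 CPM at 5 weeks against 237, 319.7 and 384 CPM at 1 week. Col4a1 did not overlap between the groups and Col4a2 did; their log2 differences were close, -0.64 (SE 0.09, edgeR adjusted p = 2.62e-06) and -0.59 (SE 0.09, edgeR adjusted p = 2.07e-05). Lama2, the laminin chain of Schwann cell and muscle basement membranes, had 89.5, 98.1 and 121 CPM at 5 weeks against 133, 147 and 175 CPM at 1 week. Nid1, which links laminin to type IV collagen, had 169, 187 and 235.5 CPM at 5 weeks against 245, 301 and 368 CPM at 1 week. Neither gene overlapped between the groups, and the log2 differences were -0.61 for Lama2 (SE 0.09, edgeR adjusted p = 3.26e-05) and -0.68 for Nid1 (SE 0.10, edgeR adjusted p = 2.03e-05).

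Promoter windows are shown for Col1a2, Col4a1 and Pmp22, because a type I collagen chain, a basement membrane chain and a compact myelin gene fell together. Each runs from 250 bases before to 50 bases after the annotated start (RefSeq, build GRCr8), at chr4:33518307-33518606 for Col1a2, chr16:84885347-84885646 for Col4a1 and chr10:48294682-48294981 for Pmp22, all on the plus strand. Capitals mark matches, on either strand, to 4 motifs: CCAAT, bound by factor NF-Y, TATAAA, the TATA box, ACAAAG, a core bound by Sox factors, and GCGNGGGCG, a core bound by Egr factors. None of the marked matches overlap.
Col1a2: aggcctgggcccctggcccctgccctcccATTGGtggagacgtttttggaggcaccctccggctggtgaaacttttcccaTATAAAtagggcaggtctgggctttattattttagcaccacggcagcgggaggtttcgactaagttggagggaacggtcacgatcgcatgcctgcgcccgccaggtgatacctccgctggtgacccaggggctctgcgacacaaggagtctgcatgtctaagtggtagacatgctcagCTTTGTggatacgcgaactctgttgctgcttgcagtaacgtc
Col4a1: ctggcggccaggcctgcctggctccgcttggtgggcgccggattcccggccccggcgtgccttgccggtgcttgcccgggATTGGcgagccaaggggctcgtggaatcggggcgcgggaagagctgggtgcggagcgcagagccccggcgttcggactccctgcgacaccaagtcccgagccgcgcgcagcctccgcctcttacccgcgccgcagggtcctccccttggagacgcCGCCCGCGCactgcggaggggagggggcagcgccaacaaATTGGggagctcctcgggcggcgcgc
Pmp22: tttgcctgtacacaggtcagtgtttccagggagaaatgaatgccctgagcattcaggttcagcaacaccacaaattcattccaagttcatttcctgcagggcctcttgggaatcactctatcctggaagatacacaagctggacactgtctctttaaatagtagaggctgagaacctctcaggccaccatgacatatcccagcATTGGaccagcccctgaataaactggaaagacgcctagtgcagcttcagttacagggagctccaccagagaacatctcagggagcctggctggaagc
Col1a2 holds a CCAAT match, a TATAAA match and an ACAAAG match, Col4a1 holds CCAAT and GCGNGGGCG matches, and Pmp22 holds a CCAAT match. Col4a1 and Col4a2 are transcribed away from each other, and their windows share 176 bases. CCAAT stood in the windows of 32.6% of the 46 lower matrix genes and 42.3% of the 26 lower myelin genes with a window, against 39.1% of the 13574 tested genes with a window and 39.6% of the 27457 genes in the table. ACAAAG stood in 10.9% of the lower matrix and 15.4% of the lower myelin genes, against 15.3% of tested genes and 19.7% of the table. TATAAA stood in 6.52% and 0, against 8.97% of tested genes and 15.3% of the table. GCGNGGGCG stood in 13.0% and 7.69%, against 9.55% of tested genes and 5.53% of the table. These matches describe letters only.

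Among elastic fibre and adhesive glycoproteins 11 of 31 fell and the median was -0.39 on the log2 scale. Eln, the elastin of elastic fibres, had the largest log2 difference of the matrix genes named here: 9.33, 22.6 and 38.9 CPM at 5 weeks against 41.0, 112 and 215 CPM at 1 week. The groups did not overlap, though each varied widely within itself (log2 difference -2.30, SE 0.42, edgeR adjusted p = 0.00031). Fbn1, the fibrillin scaffold of elastic fibres, had 35.6, 43.4 and 64.2 CPM at 5 weeks against 66.8, 116 and 123 CPM at 1 week. It too was separate between the groups, at a log2 difference of -1.20 (SE 0.19, edgeR adjusted p = 5.28e-05). Sparc, a collagen-binding glycoprotein, was the most abundant matrix transcript named here per kb of exon, at 779 CPM per kb at 5 weeks and 1099 CPM per kb at 1 week, against 66.8 and 159 CPM per kb for Col1a1. Its ganglia ranged from 1503 to 1807 CPM at 5 weeks and 1890 to 2631 CPM at 1 week, without overlap, and it fell by 0.50 on the log2 scale (SE 0.07, edgeR adjusted p = 4.92e-06). Fn1, the adhesive protein fibronectin, had 37.5, 64.0 and 130.1 CPM at 5 weeks against 96.1, 177 and 197 CPM at 1 week, with overlap and a log2 difference of -1.19 (SE 0.28, edgeR adjusted p = 0.0049); without replicates 2 and 3 of the 5-week group it did not pass.

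The small leucine-rich proteoglycans, which bind collagen and set fibril width, had 5 of 10 members lower and the lowest median of the matrix classes, -0.79. Those lower were Lum, Bgn, Aspn, Prelp and Podn, at log2 differences of -1.13, -0.99, -1.25, -0.88 and -0.78, of which Podn was named after its value was seen. Lum had 22.2, 42.7 and 82.9 CPM at 5 weeks against 59.1, 105 and 116 CPM at 1 week, a log2 difference of -1.13 (SE 0.27, edgeR adjusted p = 0.0044). Bgn had 40.0, 73.9 and 121 CPM at 5 weeks against 93.0, 156 and 204 CPM at 1 week, a log2 difference of -0.99 (SE 0.23, edgeR adjusted p = 0.0047). Both overlapped between the groups, and neither passed without replicates 2 and 3 of the 5-week group.

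Enzymes that modify, cut or cross-link collagen had 8 of 23 members lower and a median of -0.24. Loxl2, a lysyl oxidase that cross-links collagen IV, had 6.04, 8.41 and 10.8 CPM at 5 weeks against 12.8, 22.3 and 25.4 CPM at 1 week, with no overlap and a log2 difference of -1.34 (SE 0.18, edgeR adjusted p = 1.88e-06). Lox, which cross-links fibrillar collagen and elastin, had 3.90, 6.03 and 18.9 CPM at 5 weeks against 12.0, 25.3 and 36.5 CPM at 1 week; its groups overlapped, with a log2 difference of -1.59 (SE 0.33, edgeR adjusted p = 0.0012). Among matrix proteases and their inhibitors 8 of 22 fell, median -0.29. Timp3, a matrix-bound inhibitor of metalloproteinases, had 493.5, 538 and 578 CPM at 5 weeks against 614, 649 and 701 CPM at 1 week, a small but cleanly separate difference of -0.30 on the log2 scale (SE 0.05, edgeR adjusted p = 2.12e-05). Of 16 growth factor and binding protein genes that regulate matrix, 6 fell, median -0.31. Igfbp5, a binding protein of insulin-like growth factors, had 23.3, 39.1 and 67.6 CPM at 5 weeks against 55.5, 99.0 and 121 CPM at 1 week, with overlap and a log2 difference of -1.10 (SE 0.29, edgeR adjusted p = 0.012), which did not pass without replicates 2 and 3 of the 5-week group. Skil, a repressor in the TGF-beta pathway, had 21.2, 23.8 and 27.7 CPM at 5 weeks against 25.5, 30.9 and 32.2 CPM at 1 week and fell by 0.35 on the log2 scale (SE 0.07, edgeR adjusted p = 0.00037).

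Fibroblast markers fell with the matrix genes: 12 of 18 tested markers were lower, none was higher, and their median was -0.67; at an unadjusted p under 0.05, 14 were lower and none higher, and DESeq2 and limma-voom called 13 and 10 lower and none higher. Dpt, dermatopontin of capsule-type fibroblasts, had 1.53, 4.44 and 7.79 CPM at 5 weeks against 9.07, 22.8 and 25.0 CPM at 1 week. No ganglion overlapped, and the log2 difference was -2.11 (SE 0.35, edgeR adjusted p = 9.4e-05). The summed fibroblast markers, dominated by the neuronally shared Thy1, ran from 2200 to 2510 CPM at 5 weeks and from 2484 to 2861 CPM at 1 week.

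Markers of skeletal muscle and fat, tissues that are not part of the ganglion, moved the same way. Of 14 tested, 6 fell and none rose, with a median of -1.28; at an unadjusted p under 0.05, 10 were lower and none higher, and DESeq2 and limma-voom called 6 and 2 lower and none higher. Their sum was 16.2, 23.9 and 28.79 CPM at 5 weeks (lowest, median, highest) and 28.84, 47.6 and 141 CPM at 1 week, so that the groups nearly touched, with the highest in replicate 2 and the lowest in replicate 6 of the 1-week group. Of the defining genes, the muscle gene Acta1 averaged 5.15 CPM at 5 weeks and 6.62 CPM at 1 week, Ckm 0.832 and 1.91 CPM, and the fat gene Adipoq 0.0243 and 1.10 CPM; only Adipoq passed the test. Lpl, a lipase that other cell types also express, made up a median of 44.7% of the sum at 5 weeks and 46.1% at 1 week. Lpl itself had 5.63, 10.8 and 13.3 CPM at 5 weeks against 12.5, 24.5 and 33.1 CPM at 1 week and fell by 1.22 on the log2 scale (SE 0.23, edgeR adjusted p = 0.00037). Without it the other members summed to 10.6 to 15.9 CPM at 5 weeks and 15 to 110 CPM at 1 week. With the summed level of the list as a covariate, 366 genes changed, 11 matrix and 3 myelin genes among those lower. With the list less Lpl, 1017 changed, 38 matrix and 22 myelin genes among those lower. The summed level itself differed between the weeks and holds genes that fell. Calls can thus be lost whatever its role, and these fits cannot part the marker level from the week.

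Markers of other cells that a ganglion can hold were counted in the same way. Of 27 macrophage markers none changed in edgeR; at an unadjusted p under 0.05, 1 was lower and none higher, and DESeq2 called 1 lower and limma-voom none. Of 24 endothelial and pericyte markers 6 fell (25%, against 7.55% of all genes tested), with a median of -0.26. Of 15 Schwann cell markers 5 fell (33.3%) and 10 were not called, with log2 differences from -0.97 to 0.097 and a median of -0.15. Those that fell included Ncmap, Art3 and Prx, which is also counted among the myelin genes. S100b, a defining marker, averaged 807 CPM per kb of exon at 5 weeks and 848.4 CPM per kb at 1 week. Art3 was named after its value was seen.

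**Figure D3:**
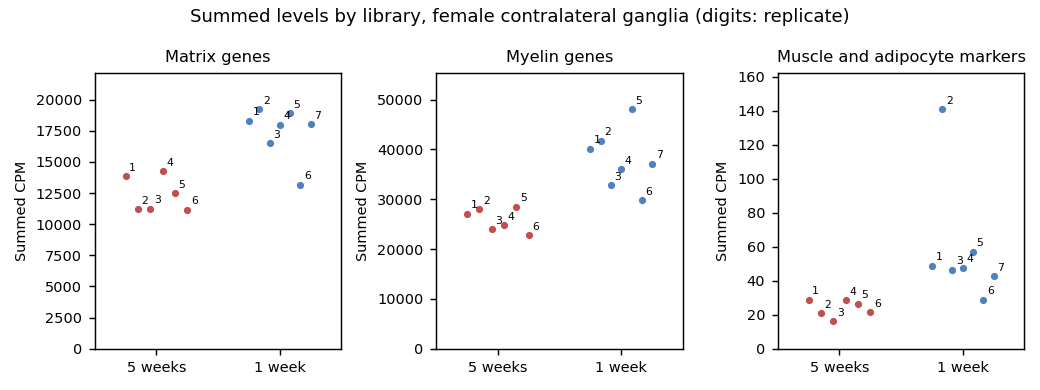
Summed CPM of the matrix list, the myelin list and the muscle and fat markers in each female contralateral ganglion, with 5-week ganglia to the left of 1-week ganglia and the replicate number beside each point. Replicate 6 of the 1-week group is the lowest of its group in the matrix list (13160 CPM) and in the muscle and fat markers (28.8 CPM), and replicate 2 is the highest in both (19240 and 141 CPM).

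Myelin genes were also lower in the 5-week ganglia. Of 67 tested, 32 fell (47.8%, against 7.55% of all genes) and none rose, with a median of -0.24; at an unadjusted p under 0.05, 38 were lower and none higher, and DESeq2 and limma-voom each called 32 lower and none higher. Myelin transcripts summed to 22770, 25950 and 28470 CPM at 5 weeks and 29770, 37150 and 48070 CPM at 1 week, without overlap. Compact myelin proteins dominated this sum, with medians of 11960 CPM at 5 weeks and 21960 CPM at 1 week. The medians were 5512 and 6469 CPM for non-compact and adhesion genes, 6308 and 6845 CPM for lipid synthesis and 2105 and 2244 CPM for regulators. Without replicates 2 and 3 of the 5-week group 28 myelin genes fell.

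Compact myelin proteins carried the largest differences, with 7 of 9 members lower and a median of -0.76. Pmp22, the myelin protein whose dosage underlies Charcot-Marie-Tooth disease type 1A in humans, had 2270, 2731 and 3258 CPM at 5 weeks against 3558, 5034 and 6692 CPM at 1 week. Mbp, which compacts the inner membrane faces, had 1260, 1502 and 1822 CPM at 5 weeks against 1846, 2489 and 3500 CPM at 1 week. No 5-week ganglion reached the lowest 1-week ganglion for either gene, with log2 differences of -0.86 for Pmp22 (SE 0.14, edgeR adjusted p = 8.01e-05) and -0.76 for Mbp (SE 0.14, edgeR adjusted p = 0.00028). Per kb of exon, Pmp22 stood at 1274 CPM at 5 weeks and 2311 CPM at 1 week, and Mbp at 424 CPM at 5 weeks and 720.3 CPM at 1 week.

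**Figure D4:**
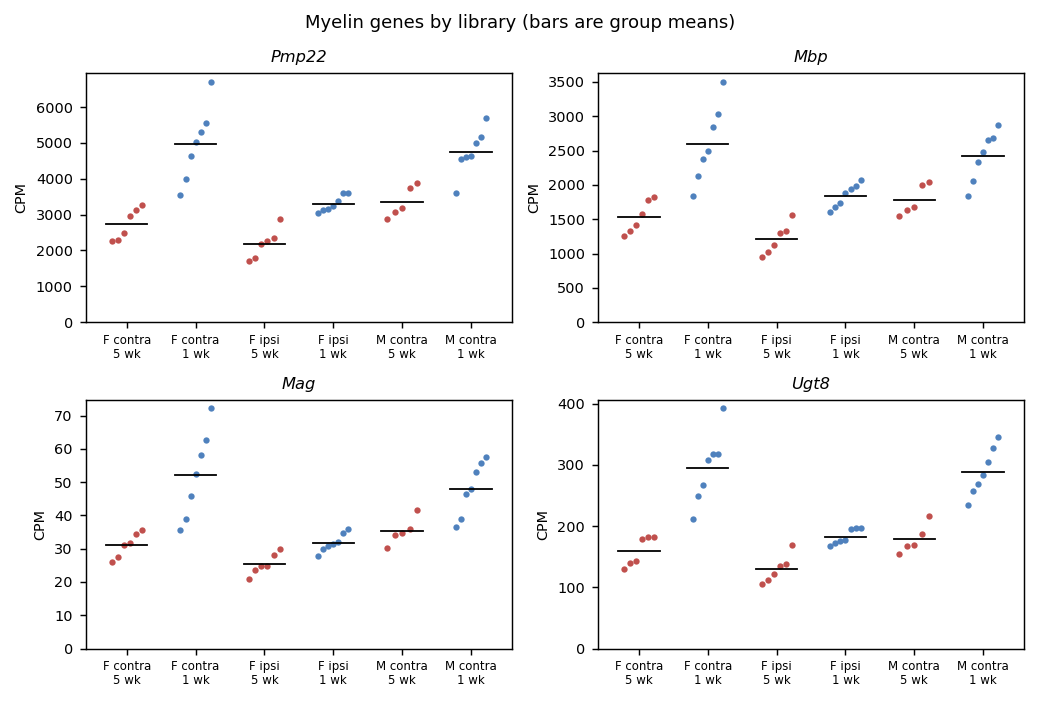
CPM (linear axes from 0) of Pmp22, Mbp, Mag and Ugt8 in female contralateral, female ipsilateral and male contralateral ganglia, 1 point per ganglion, with each 5-week group to the left of its 1-week group and a line at each group mean. In female contralateral ganglia Pmp22 reaches 3258 CPM at most at 5 weeks and starts at 3558 CPM at 1 week.

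Among proteins of non-compact myelin, nodes and Schwann cell contacts 12 of 24 fell, with a median of -0.16. Mag, the adhesion protein of the inner myelin loop, had 25.9, 31.4 and 35.6 CPM at 5 weeks against 35.6, 52.5 and 72.3 CPM at 1 week; the groups touched at 35.6 CPM and the log2 difference was -0.75 (SE 0.14, edgeR adjusted p = 0.00039). Prx, periaxin of the outer Schwann cell membrane, had 638, 726 and 895 CPM at 5 weeks against 815, 1146 and 1551 CPM at 1 week. It overlapped between the groups, with a log2 difference of -0.68 (SE 0.14, edgeR adjusted p = 0.0017). Cldn19, a claudin of the tight junctions between myelin wraps, had 106, 135 and 152 CPM at 5 weeks against 149, 206 and 287 CPM at 1 week and fell by 0.68 on the log2 scale (SE 0.14, edgeR adjusted p = 0.0012). Cd9, a tetraspanin of myelinating Schwann cells, had 280.5, 312 and 354 CPM at 5 weeks against 342, 403 and 493.1 CPM at 1 week and fell by 0.37 on the log2 scale (SE 0.08, edgeR adjusted p = 0.0011). Cadm2, a cell adhesion molecule of axons and glia, had 35.3, 37.6 and 40.5 CPM at 5 weeks against 50.2, 54.1 and 66.2 CPM at 1 week. Its ranges were narrow and did not overlap, with a log2 difference of -0.56 (SE 0.08, edgeR adjusted p = 4.01e-06).

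Regulators of myelination had 8 of 19 members lower, median -0.15. Egr2, the transcription factor required for myelination, had 21.7, 26.1 and 39.3 CPM at 5 weeks against 24.3, 42.2 and 54.3 CPM at 1 week, with wide overlap and a log2 difference of -0.60 (SE 0.17, edgeR adjusted p = 0.018). It did not pass without replicates 2 and 3 of the 5-week group together, nor without replicate 3 or 6 of the 5-week group or replicate 7 of the 1-week group alone. Adgrg6, a receptor needed for Schwann cells to begin myelination, had 72.5, 73.4 and 80.4 CPM at 5 weeks against 81.05, 94.3 and 105 CPM at 1 week, without overlap (log2 difference -0.32, SE 0.06, edgeR adjusted p = 0.00019). Qk, the RNA-binding protein Quaking, had 188, 213.5 and 225 CPM at 5 weeks against 239.7, 276 and 328 CPM at 1 week, also without overlap (log2 difference -0.40, SE 0.07, edgeR adjusted p = 0.00028). Of 16 genes of myelin lipid synthesis 6 fell, median -0.18. Ugt8, which makes galactocerebroside, had 129.5, 161 and 182 CPM at 5 weeks against 212, 308 and 393 CPM at 1 week, and its groups were separate at a log2 difference of -0.89 (SE 0.15, edgeR adjusted p = 7.5e-05).

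The same weeks were then set against each other in the injured ganglia, where 1584 of 18125 genes rose (8.74%) and 1548 fell (8.54%), with a median of -0.01 over all genes. Of the matrix genes 5 of 149 rose, 5 fell and the median was 0.00. Whether the week difference itself differed between the sides was tested as an interaction in the same fit, without the pairing of both ganglia of an animal. It differed for 2454 genes (13.5%), of which 1388 (7.66%) were lower on the contralateral side and 1066 (5.88%) higher. Of the 149 matrix genes 44 were lower and 1 (Col24a1, a minor fibrillar collagen, named after its value was seen) higher in that test, the lower ones including Col3a1 (difference of log2 differences -1.39, edgeR adjusted p = 0.0034), Col14a1 (-0.68, edgeR adjusted p = 6.37e-05) and Col4a1 (-0.62, edgeR adjusted p = 0.00034). With the animal as a block 67 matrix genes were lower, though more genes passed in all as well (the count is given with the processing settings below). With the ribosomal RNA share of each library as a covariate 3 matrix genes were lower and 716 genes differed in all. Col14a1 still passed (-0.62, edgeR adjusted p = 0.022), but Col3a1 (-1.13, edgeR adjusted p = 0.17) and Col4a1 (-0.45, edgeR adjusted p = 0.14) did not. That share was 1.6% to 2.49% in 5-week and 0.692% to 1.42% in 1-week injured ganglia and 1.68% to 2.44% and 1.69% to 2.76% in the contralateral ganglia of 5 and 1 weeks. The 1-week injured ganglia lay below the other female groups, so the covariate runs partly with the tested difference. The part of the ribosomal RNA share in the side difference was not tested further.

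Compact myelin genes fell on both sides. In the injured ganglia 5 of 9 were lower with a median of -0.60, and Pmp22 had 1702, 2219 and 2871 CPM at 5 weeks against 3032, 3248 and 3613 CPM at 1 week (log2 difference -0.59, SE 0.14, edgeR adjusted p = 0.0029). The groups did not overlap there either. None of the 9 compact myelin genes passed the test of a side difference; at an unadjusted p under 0.05 2 did, and 1 passed, lower on the contralateral side, with the animal as a block. Over all 67 myelin genes, 11 rose and 16 fell on the injured side, the median was -0.03, and 12 were lower and 1 (Sgpl1, named after its value was seen) higher in the test between sides. Those 12 included Cadm2 (-1.13, edgeR adjusted p = 4.94e-10) and Adgrg6 (-0.44, edgeR adjusted p = 0.00017). With each library's ribosomal RNA share in the fit, 2 myelin genes were lower, Cadm2 among them (-1.18, edgeR adjusted p = 1.17e-06), and Adgrg6 did not pass (-0.27, edgeR adjusted p = 0.20).

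In male contralateral ganglia 1393 of 18980 genes rose (7.34%) and 1176 fell (6.2%) between the same weeks, with a median of 0.02 over all genes. Of the matrix genes 21 fell there, 3 rose and the median was -0.08. Their summed level was 13900, 16210 and 17720 CPM at 5 weeks and 14580, 18300 and 19730 CPM at 1 week, with wide overlap. Col1a1 (log2 difference -0.63, SE 0.15, edgeR adjusted p = 0.0080), Col4a1 (-0.37, SE 0.07, edgeR adjusted p = 0.0020), Eln (-1.82, SE 0.47, edgeR adjusted p = 0.014) and Loxl2 (-0.78, SE 0.19, edgeR adjusted p = 0.010) fell in males too. Timp3 rose there (0.17, SE 0.05, edgeR adjusted p = 0.022). Compact myelin was lower in males as well, with 8 of 9 members lower and a median of -0.50, and Pmp22 fell by 0.50 on the log2 scale (SE 0.10, edgeR adjusted p = 0.0024). In males 11 of 16 lipid synthesis genes fell.

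Whether the week difference differed between the sexes was tested over all 62 libraries, and 1119 of 19209 genes passed (5.83%), 531 of them lower (2.76%) and 588 higher (3.06%) in females. Male and female libraries of these weeks come from separate count tables, so sex and table cannot be told apart. Of the matrix genes 17 were lower and 1 (P4ha1) higher in that test, the lower ones including Timp3 (-0.44, edgeR adjusted p = 1.86e-05), Lama2 (-0.52, edgeR adjusted p = 0.0044) and Col14a1 (-0.48, edgeR adjusted p = 0.017). Dpt of the fibroblast markers was lower as well (-1.84, edgeR adjusted p = 0.030). Col1a1, Col3a1 and Col4a1 did not pass that test. Of the myelin genes 4 were lower and 2 (Sox2 and Scd, named after their values were seen) higher, and none were compact myelin genes; at an unadjusted p under 0.05 1 of the 9 passed. Egr2 differed (-0.99, edgeR adjusted p = 0.019). Of the 1369 genes lower in female contralateral ganglia, 253 were also lower in the male ones (18.5% of the female and 21.5% of the male list) and 44 were higher.

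A separate group of genes moved in opposite directions on the sides. Of the 1369 genes lower at 5 weeks contralaterally, 343 were higher at 5 weeks ipsilaterally (25.1% of the contralateral decreases and 21.7% of the 1584 ipsilateral increases), and 161 were lower on both sides. Of the 66 lower genes of the matrix list none was in this set. Col19a1, a collagen outside the list, was, at -0.45 contralaterally and 0.47 ipsilaterally on the log2 scale (named after its values were seen). Of the 32 lower myelin genes 2 were in the set, Cadm2 and Zeb2, a repressor needed for Schwann cell differentiation (named after its value was seen). The 343 had long transcripts, with a median exon length of 8434 bases against 3267 for all genes tested and 5072 for all genes lower. Relative to the 1-week contralateral ganglia, their median level was 0.807 in the 5-week contralateral, 1.02 in the 5-week ipsilateral and 0.806 in the 1-week ipsilateral ganglia, and 0.989 in the contralateral ganglia of males at 24 h. The ribosomal RNA share was 0.692% to 1.42% in the 1-week injured ganglia and at least 1.6% in the other female groups. Which read length applies to which library is not given, and a part of library or sequencing batch in this set was not tested. The fall on the contralateral side and the rise on the injured side follow from the way the set was chosen. The choice also limits how the levels of the injured and contralateral ganglia can stand to each other. All these levels, the male one included, are relative to the 1-week contralateral ganglia, which were part of the choice. They are given as description only.

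Ro60, which encodes an RNA-binding protein that binds misfolded small RNAs, belonged to this set. It had 4.30, 5.74 and 7.66 CPM at 5 weeks and 15.2, 19.8 and 22 CPM at 1 week on the contralateral side, without overlap (log2 difference -1.73, SE 0.12, edgeR adjusted p = 1.73e-12). On the injured side it had 22.4, 24.6 and 27.1 CPM at 5 weeks and 4.73, 6.07 and 9.65 CPM at 1 week (log2 difference 1.93, SE 0.12, edgeR adjusted p = 2.16e-14). Male contralateral ganglia had 11.3, 12.2 and 14.4 CPM at 5 weeks and 10.7, 11.6 and 13.7 CPM at 1 week, and the difference did not pass (0.07, edgeR adjusted p = 0.60). The female side difference was -3.66 on the log2 scale (edgeR adjusted p = 3.15e-18), and -3.43 with the ribosomal RNA share as a covariate (edgeR adjusted p = 4e-13).

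**Figure D5:**
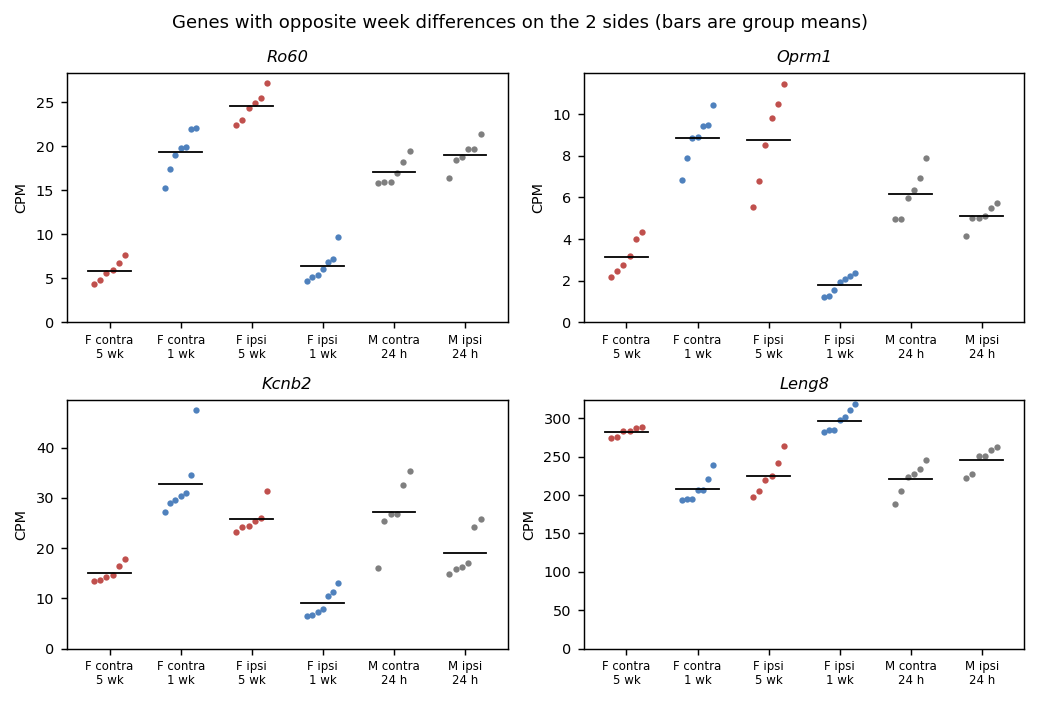
CPM (linear axes from 0) of Ro60, Oprm1, Kcnb2 and Leng8, 1 point per ganglion, in contralateral and ipsilateral ganglia of females at 5 weeks and 1 week and of males at 24 h, with a line at each group mean. Ro60 is low in the 5-week contralateral (4.30 to 7.66 CPM) and 1-week ipsilateral ganglia (4.73 to 9.65 CPM) of females and higher in the other groups shown; Leng8 runs the other way.

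Neuronal genes belonged to it too. Oprm1, the mu opioid receptor, had 2.199, 2.97 and 4.34 CPM at 5 weeks and 6.83, 8.89 and 10.5 CPM at 1 week contralaterally, without overlap (log2 difference -1.48, SE 0.16, edgeR adjusted p = 3.47e-08). On the injured side it had 5.56, 9.18 and 11.5 CPM at 5 weeks and 1.22, 1.92 and 2.36 CPM at 1 week (log2 difference 2.28, SE 0.17, edgeR adjusted p = 1.08e-12). The potassium channel gene Kcnb2 fell by 1.12 (SE 0.17, edgeR adjusted p = 1.59e-05) and Kcnh7 by 0.70 on the log2 scale (SE 0.10, edgeR adjusted p = 5.55e-06). Kcnb2 ran from 13.4 to 17.9 CPM at 5 weeks and 27.2 to 47.5 CPM at 1 week, and Kcnh7 from 88.1 to 103 CPM and 146 to 171 CPM, neither with overlap. Both rose on the injured side, by 1.51 and 1.00 on the log2 scale (SE 0.17 and 0.10, edgeR adjusted p = 4.68e-08 and 4.55e-09). Ntrk3, the neurotrophin-3 receptor of proprioceptors and some touch neurons, had 227, 239 and 247 CPM at 5 weeks and 296, 316 and 334 CPM at 1 week contralaterally. It fell by 0.40 on the log2 scale (SE 0.06, edgeR adjusted p = 5.1e-06). Scn9a, the sodium channel Nav1.7 of nociceptors, had 281, 292 and 299 CPM at 5 weeks and 315, 359 and 378 CPM at 1 week and fell by 0.25 on the log2 scale (SE 0.05, edgeR adjusted p = 0.0011). Neither overlapped between the groups, and both rose on the injured side, by 0.61 and 0.50 on the log2 scale (SE 0.06 and 0.05, edgeR adjusted p = 4.29e-10 and 6.38e-09).

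Of the genes with the smallest p-values, Pik3c2a, a class II phosphoinositide 3-kinase, had 28.4, 30.3 and 34.2 CPM at 5 weeks against 49.3, 50.3 and 54.3 CPM at 1 week. Its ranges were tight and separate (log2 difference -0.74, SE 0.05, edgeR adjusted p = 1.65e-13). Gucy1a2, a subunit of the nitric oxide receptor guanylyl cyclase, had 18.0, 20.4 and 21.3 CPM at 5 weeks against 39.0, 40.1 and 48.9 CPM at 1 week (log2 difference -1.08, SE 0.08, edgeR adjusted p = 7.71e-12). Zbtb41, a zinc finger gene, had 1.94, 2.59 and 3.23 CPM at 5 weeks against 6.69, 8.38 and 9.64 CPM at 1 week (log2 difference -1.69, SE 0.14, edgeR adjusted p = 3.43e-11). All 3 rose on the injured side, by 0.58, 1.20 and 1.72 on the log2 scale (SE 0.05, 0.08 and 0.13, edgeR adjusted p = 1.58e-11, 2.47e-13 and 4.18e-12). In males Gucy1a2 fell by 0.38 (SE 0.08, edgeR adjusted p = 0.0023), and Pik3c2a and Zbtb41 did not pass.

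The genes that rose at 5 weeks changed little in size. Leng8 had 274, 283 and 288 CPM at 5 weeks against 194, 206 and 239 CPM at 1 week, without overlap (log2 difference 0.44, SE 0.06, edgeR adjusted p = 1.5e-06). Fam193b had 51.7, 53.8 and 57.9 CPM at 5 weeks against 39.4, 41.5 and 45.0 CPM at 1 week (log2 difference 0.38, SE 0.04, edgeR adjusted p = 2.25e-07). Chka, choline kinase of phosphatidylcholine synthesis, had 58.6, 62.2 and 66.3 CPM at 5 weeks against 44.3, 49.8 and 53.7 CPM at 1 week (log2 difference 0.32, SE 0.05, edgeR adjusted p = 4.92e-06). All 3 were separate between the groups and fell on the injured side, by 0.40 for Leng8 (edgeR adjusted p = 4.39e-06), 0.19 for Fam193b (edgeR adjusted p = 0.0024) and 0.13 for Chka (edgeR adjusted p = 0.039). Atxn2l, an RNA-binding protein of stress granules, had 149.7, 165 and 168 CPM at 5 weeks against 122, 137 and 142 CPM at 1 week and rose by 0.28 on the log2 scale (SE 0.04, edgeR adjusted p = 5.06e-07). Lgi4, a secreted protein that myelinating Schwann cells need and that satellite glia express, rose while the myelin genes fell: 300.2, 316 and 332 CPM at 5 weeks stood against 226, 235 and 272 CPM at 1 week (log2 difference 0.37, SE 0.06, edgeR adjusted p = 5.38e-05). Lgi4 also rose in males, by 0.27 (SE 0.06, edgeR adjusted p = 0.0026). The heat shock gene Hspa1b had 26.5, 32.4 and 39.0 CPM at 5 weeks against 18.8, 21.3 and 25.4 CPM at 1 week and rose by 0.56 on the log2 scale contralaterally and 0.58 ipsilaterally (SE 0.08 each, edgeR adjusted p = 4.79e-06 and 9.96e-07). In all, 103 genes that rose here fell on the injured side (18.2% of 567 and 6.65% of 1548).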

How the data were processed

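Whole L4 ganglia were profiled by poly-A selected, strand-specific RNA-seq, sequenced single-end with read lengths of 75 or 100 nt; which applies to which library is not given in the sources used here. RNA had an integrity number of at least 7.5, inputs were 300 to 500 ng and PCR ran for 13 to 15 cycles, per the labels' protocols. The authors deposited estimated counts per gene for 40982 genes, of which 78.1% of nonzero values in the table used are whole. Per the submitters' processing notes the build was mRatBN7.2, and the tools listed are STAR 2.7.2b, featureCounts 1.6.4, cutadapt 2.5 and bcl2fastq 2.20.0.422; their settings are not given in the sources used here. The design had named whole counts as the unit.

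Estimated counts were rounded, changing library totals by 0.00131% or less, and fitted with R 4.3.3 and edgeR 4.0.16. Settings were TMM scaling, filterByExpr with a minimum count of 10 and a robust quasi-likelihood test. Benjamini-Hochberg adjustment ran over all genes tested, with a threshold of 0.05. For females the fit took all 38 libraries of their count table, which also holds the male ganglia of 24 h. The male comparison took the 24 libraries of the other table, and the sex comparison all 62 jointly. A standard error is the absolute log2 fold change over the square root of F. CPM are per TMM-scaled library size. limma 3.58.1 (voom) and DESeq2 1.42.0 served as alternatives, with Python 3.11.15 and pandas 2.3.3 for tables. The count tests were first tested on simulated data.

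The comparison, its members and the 35 gene lists (742 genes, 701 found, 673 tested) were chosen with earlier results of these data known. Named genes are the 10 smallest p-values per direction with a mean log2 CPM of at least 1, the 4 smallest per list, and fixed matrix, myelin and injury genes, of which 58 are given values under every alternative. Of the list genes, 5 were matched through another RefSeq symbol, and none of the mitochondrially encoded genes was analysed here. A few named genes are not reported here. No 2 of the 62 libraries, compared in 979 pairs within their tables, agreed within sampling noise (lowest chi-square per gene 5.08). Replicate numbers do not pair the weeks, whose animals differ: deviations of same-numbered libraries correlated at -0.121 to 0.0917. The animal codes shared by both ganglia were read as animals, and their deviations correlated at 0.111 to 0.418. The 2 weeks are separate animals, whereas the 2 sides of a week share animals, which the main fit treats as independent. The p-values rest on a spread estimated over all groups of a fit. For females these include the injured ganglia and the male 24 h ganglia. Promoter windows come from a RefSeq table of build GRCr8, not the build of the counts.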

Additional observations from a re-analysis of the deposited data

Results flagged for a closer look

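Single ganglia stood apart from their group in 6 of 124 groups of values examined; about 1 in 20 such groups stands apart by chance. In replicate 6 at 1 week Col3a1 (429.6 CPM), Fbn1 (66.8 CPM) and Lum (59.1 CPM) were lowest. Skil was lowest in replicate 1 at 1 week (25.5 CPM), Kcnb2 highest in replicate 7 at 1 week (47.5 CPM), and the summed muscle and fat markers highest in replicate 2 at 1 week (141 CPM).

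The week difference itself differed between contralateral and injured ganglia, by edgeR's interaction test, for 41 of the 58 genes followed. As contralateral minus ipsilateral log2 differences, matrix and fibroblast genes stood at -0.92 for Col1a1, -0.89 for Col1a2, -1.39 for Col3a1, -0.57 for Col5a1, -1.06 for Col6a3, -0.68 for Col14a1, -0.62 for Col4a1, -0.46 for Col4a2, -0.59 for Lama2, -0.63 for Nid1, -2.02 for Eln, -1.03 for Fbn1, -1.15 for Fn1, -0.30 for Sparc, -0.96 for Bgn, -1.54 for Lox, -1.04 for Loxl2, -0.27 for Timp3, -1.36 for Igfbp5, -0.42 for Skil and -1.82 for Dpt. Other genes that were lower stood at -1.13 for Cadm2, -0.36 for Qk, -0.44 for Adgrg6, -3.66 for Ro60, -3.76 for Oprm1, -2.63 for Kcnb2, -1.70 for Kcnh7, -1.33 for Pik3c2a, -3.40 for Zbtb41, -2.27 for Gucy1a2, -1.02 for Ntrk3, -0.76 for Scn9a and -0.85 for Fos. Those higher stood at 0.57 for Fam193b, 0.37 for Atxn2l, 0.84 for Leng8, 0.46 for Chka, 0.42 for Lgi4, 0.72 for Miat and 0.55 for Hspb1. With the ribosomal RNA share of each library as a covariate 716 genes differed in all, against 2454 without it. Among females that share was lower in the 1-week injured ganglia than in every other group, without overlap. The covariate thus runs partly with the tested difference, and a lost call does not show that the share accounts for it. Of the 41 genes, 18 still passed and 23 did not, and none changed sign. Those that passed were Col14a1, Skil, Cadm2, Ro60, Oprm1, Kcnb2, Kcnh7, Pik3c2a, Zbtb41, Gucy1a2, Ntrk3, Scn9a, Fam193b, Atxn2l, Leng8, Chka, Miat and Hspb1. Calls lost with that covariate included Col1a1 (edgeR adjusted p = 0.44), Eln (0.36), Dpt (0.12), Qk (0.52), Lgi4 (0.22) and Fos (0.61).

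The week difference of contralateral ganglia differed between females and males, with sex tied to count table, for 22 of the 58. As female minus male log2 differences, lower genes stood at -0.48 for Col14a1, -0.52 for Lama2, -0.89 for Fbn1, -0.31 for Sparc, -0.44 for Timp3, -1.84 for Dpt, -0.99 for Egr2, -0.48 for Cadm2, -1.77 for Ro60, -1.89 for Oprm1, -1.16 for Kcnb2, -0.58 for Kcnh7, -0.61 for Pik3c2a, -1.76 for Zbtb41, -0.66 for Gucy1a2 and -0.29 for Ntrk3. Those higher stood at 0.36 for Fam193b, 0.24 for Atxn2l, 0.42 for Leng8, 0.39 for Chka, 0.93 for Hspa1b and 0.50 for Miat.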

How the results depend on the processing

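Of the 58 genes followed through 28 settings, 54 changed as reported; 16 of them kept direction and call in every setting, 53 did so when any 1 library was left out (all but Egr2), and 6 turned in direction in at least 1 setting. With both ganglia of each animal summed, 817 genes were lower, 35 of them matrix genes, and 2 matrix and 4 myelin genes were higher. The log2 difference turned to 0.063 for Cadm2, 0.25 for Ro60 (edgeR adjusted p = 0.020), 0.16 for Oprm1, 0.11 for Zbtb41, 0.033 for Ntrk3, 0.12 for Scn9a, -0.50 for Atf3 (edgeR adjusted p = 0.042) and -0.16 for Gap43. Summed counts weight each side by its level, so the Atf3 value is mostly that of the injured ganglia. Without a filter on low counts 366 genes were higher, with 31709 tested. Matrix genes higher numbered 1 under RLE scaling, a stricter filter, DESeq2, the 2 groups alone, the ribosomal RNA share as covariate and both marker covariates, and 2 under limma-voom.

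These were chosen after seeing the data. Without 5-week libraries 2 and 3, 1074 genes changed (285 higher, 789 lower, 35 of them matrix). With the muscle and fat marker level as covariate 366 changed (123 higher, 243 lower, 11 matrix and 3 myelin genes lower), and with that level less Lpl 1017 changed (305 higher, 712 lower, 38 matrix lower). Gal turned to 0.21 and 0.057 and Gap43 to -0.041 under the marker covariates. The marker level itself differed between the weeks, so these fits cannot part it from the week. The cause was not tested.

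Leaving out 1 library at a time gave 1412 (without 5-week replicate 6) to 2136 genes (without 1-week replicate 6): 418 to 648 higher, 994 to 1488 lower, 46 to 74 matrix and 29 to 36 myelin genes lower, and 0 to 2 matrix genes higher. For injured ganglia it gave 2504 to 3238 and for males 1747 to 2464 genes.

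With the replicate number as a block 1653 genes changed, 46 matrix and 37 myelin genes lower and 1 matrix gene higher; the numbers do not pair these weeks. With the animal as a block, 3446 genes differed between sides, 67 matrix and 20 myelin genes lower; among the genes followed the block added Lum (edgeR adjusted p = 0.038) and Gal (0.021) and changed no other call. With the ribosomal RNA share as covariate 716 differed, 3 matrix and 2 myelin genes lower. Whole-ganglion counts of 18.4 to 25.5 M leave genes under about 1 CPM least well measured.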

Other observations

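Gene groups outside matrix and myelin were counted at 5 weeks relative to 1 week in the contralateral ganglia of females, where 3.13% of all genes tested were higher and 7.55% lower. Cell cycle genes had 5 of 36 members lower (13.9%) and a median log2 difference of -0.38. Prc1, a cytokinesis gene, had 2.33, 2.52 and 2.92 CPM at 5 weeks (lowest, median, highest) against 3.89, 4.35 and 6.80 CPM at 1 week, without overlap, a log2 difference of -0.91 (SE 0.19, edgeR adjusted p = 0.0015). It also fell in the injured ganglia (-0.83, SE 0.18, edgeR adjusted p = 0.00090) and in males (-0.59, SE 0.15, edgeR adjusted p = 0.0081). Immediate early genes had 3 of 24 lower (12.5%), median -0.23. Fos had 3.36, 3.85 and 5.00 CPM at 5 weeks against 3.70, 7.55 and 11.2 CPM at 1 week, with overlap and a log2 difference of -0.88 (SE 0.20, edgeR adjusted p = 0.0030).

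RNA-processing genes had 3 of 40 higher and 9 lower (22.5%), median -0.05. Long noncoding RNAs had 3 of 5 higher and 1 lower, and Miat had 743, 798 and 877 CPM at 5 weeks against 531, 591.5 and 765 CPM at 1 week (log2 difference 0.37, SE 0.07, edgeR adjusted p = 0.00055). Potassium channels had 1 of 42 higher and 6 lower (14.3%), against 17 higher and 1 lower on the injured side, where 8.74% of all genes were higher and 8.54% lower. Sodium and calcium channels had 2 of 34 higher and 4 lower (11.8%), satellite glia markers 1 of 17 higher and 3 lower (17.6%), and opioid receptors 1 of 4 lower. Neuron markers had 1 of 32 higher and 2 lower (6.25%), near the share of all genes. Among 30 nerve injury genes 1 was higher, Hspb1, a small heat shock protein gene with 226, 255 and 273 CPM at 5 weeks against 155, 195 and 226 CPM at 1 week (log2 difference 0.38, SE 0.10, edgeR adjusted p = 0.0080). None of that list fell in edgeR; 2 were lower at an unadjusted p under 0.05, and DESeq2 and limma-voom called none lower.

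Clock genes (2 of 21 lower, 9.52%), cholesterol synthesis genes (1 of 25 higher, 2 lower, 8%) and neutrophil and mast cell markers (1 of 16 lower, 6.25%) also stood near the share of all genes. In males 16 clock genes were higher and 4 lower, and 1 cholesterol synthesis gene was higher and 15 lower, where 7.34% of all genes were higher and 6.2% lower. In the test between sexes 13 clock genes were lower and 2 higher, and 7 cholesterol synthesis genes were higher and none lower. Of all genes, 2.76% were lower and 3.06% higher in that test. Stress and glucocorticoid response genes had 2 of 21 higher and 3 lower. Of 10 lymphocyte and 15 erythrocyte markers none changed in edgeR, DESeq2 or limma-voom, and 2 and 1 were lower at an unadjusted p under 0.05.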
